A study of Mus musculus with 12 samples.

Results

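The comparison set 6 libraries of mouse gonocytes at the embryonic stage E16.5 and on the day of birth (P0) against 6 libraries at E13.5 and postnatal day 3 (P3). Of 15037 genes with a highest stage mean of at least 100, 1077 were higher in the E16.5 and P0 set and 992 were lower. These are the genes whose every library in one set was at least 2 times every library in the other. All values are normalized counts, which are reads of a gene over the size factor of the library, and they are not divided by transcript length. The table held 55487 genes, and the remainder had lower stage means.

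The cells were male germ cells isolated from the testis of Mvh-Venus transgenic mice, in which a fluorescent protein marks the germ line. Each of the 4 stages had 3 libraries, named here by the numbers 1, 3 and 4 of the column heads. Titles and source names call every sample WT, whereas the genotype tag reads Morc1 (+/-) at E13.5 and P0 and Morc1 (-/-) at E16.5 and P3. Each set therefore held 1 stage of each tag. Morc1 itself stood at 10584 or more in each library tagged -/- and at 7708 or less in each library tagged +/-, and it was not among the genes the rule picked. The labels do not say whether the samples of a stage came from separate animals, so p-values measure only the spread between these samples. Each set rests on 2 stages.

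Gonocytes, also called prospermatogonia, divide after they enter the fetal testis, then leave the cell cycle in late fetal life and resume division shortly after birth as they move to the basement membrane and become spermatogonia. During the pause they set up new DNA methylation, guided in part by small RNAs of the piRNA pathway that mark transposons. E16.5 and P0 are called the arrested set here and E13.5 and P3 the proliferating set, from this background, since the labels give no cell cycle measurement. In dividing cells the E2F factors switch on genes for DNA synthesis at the start of S phase, and a second wave of genes for mitosis carries the cell cycle gene homology region (CHR, the letters TTTGAA) and CCAAT boxes in its promoters. When cells leave the cycle, RB family proteins and the DREAM complex hold both groups down.

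Genes of dividing cells are shown here beside the names of the sets. The rule itself picked these genes, so they are no test of the names. Other listed genes of the cycle, such as Pttg1 and Cdc25b, went the other way. Mki67, which encodes the proliferation antigen Ki-67, stood at 1831, 1515 and 1698 at E13.5 and at 1889, 1995 and 2374 at P3. It stood at 128, 219 and 139 at E16.5 and at 228, 192 and 190 at P0, so no arrested library came within 6.64-fold of a proliferating one. Pcna, the sliding clamp of replication, and Top2a, the topoisomerase of mitotic chromosomes, were separated in the same direction.

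Promoters of genes that the results below turn on are printed here from RefSeq (GRCm38.p6, 250 bases before to 50 bases after the start of the transcript). They stand for the mitotic group (Plk1 and Cdk1), the replication group (Mcm6) and the gene with the widest gap among those lower in the arrested set (Lhx1). Capitals mark matches, on either strand, to the CHR word TTTGAA. They also mark the CCAAT box on either strand, and the E2F-type words TTTCCCGC, TTTCGCGC, TTTGCCGC and TTTGGCGC.
Plk1, chr7:122159185-122159484, + strand: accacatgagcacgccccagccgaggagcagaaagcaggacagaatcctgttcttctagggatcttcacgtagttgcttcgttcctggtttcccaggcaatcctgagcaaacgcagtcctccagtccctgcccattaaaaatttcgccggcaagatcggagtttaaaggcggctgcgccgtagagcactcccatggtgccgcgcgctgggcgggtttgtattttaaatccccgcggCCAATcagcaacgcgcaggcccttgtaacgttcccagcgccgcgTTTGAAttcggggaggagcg
Cdk1, chr10:69352863-69353162, - strand: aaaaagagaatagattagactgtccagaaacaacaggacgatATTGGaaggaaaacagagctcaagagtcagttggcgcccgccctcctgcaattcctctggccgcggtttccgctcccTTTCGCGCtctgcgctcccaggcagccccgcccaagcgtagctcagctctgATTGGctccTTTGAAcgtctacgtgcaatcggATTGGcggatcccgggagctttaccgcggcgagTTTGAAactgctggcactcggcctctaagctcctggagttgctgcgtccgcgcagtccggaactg
Mcm6, chr1:128359656-128359955, - strand: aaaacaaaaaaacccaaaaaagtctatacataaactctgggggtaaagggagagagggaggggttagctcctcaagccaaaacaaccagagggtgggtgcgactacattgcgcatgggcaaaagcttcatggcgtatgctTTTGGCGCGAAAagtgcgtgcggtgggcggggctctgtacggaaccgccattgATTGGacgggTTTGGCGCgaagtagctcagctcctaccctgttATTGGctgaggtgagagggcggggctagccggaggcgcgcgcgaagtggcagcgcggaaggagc
Lhx1, chr11:84525485-84525784, - strand: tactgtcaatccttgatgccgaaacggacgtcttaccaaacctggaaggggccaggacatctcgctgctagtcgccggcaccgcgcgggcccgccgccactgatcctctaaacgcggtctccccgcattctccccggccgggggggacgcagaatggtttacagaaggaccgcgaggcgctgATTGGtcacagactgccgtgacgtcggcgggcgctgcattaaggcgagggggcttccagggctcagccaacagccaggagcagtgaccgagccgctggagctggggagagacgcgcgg

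The Plk1 window held a CCAAT box at position -14 and a CHR at position 31, counted from the first transcribed base as 1. The Cdk1 window held 3 CCAAT boxes, 2 CHR words and 1 E2F-type word. In the Mcm6 window 2 E2F-type matches overlapped on opposite strands, another lay nearer the start, and no CHR was found. The Lhx1 window held 1 CCAAT box and neither of the other motifs. A match is a run of letters and not a measured binding site.

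The 992 genes lower in the arrested set made up 6.6% of the genes with a highest stage mean of at least 100, and the 1077 higher genes made up 7.16%. For scale, the same rule gave 179 higher and 162 lower genes when P0 and P3 were set against E13.5 and E16.5, and 39 and 45 genes when the stages tagged -/- were set against those tagged +/-. In bulk samples like these, fewer cells of a type and less RNA per cell cannot be told apart. The values that picked these genes are described below without a test. Tests are given for gene lists over all genes, and for contrasts inside each set, which the rule did not use.

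**Figure D1:**
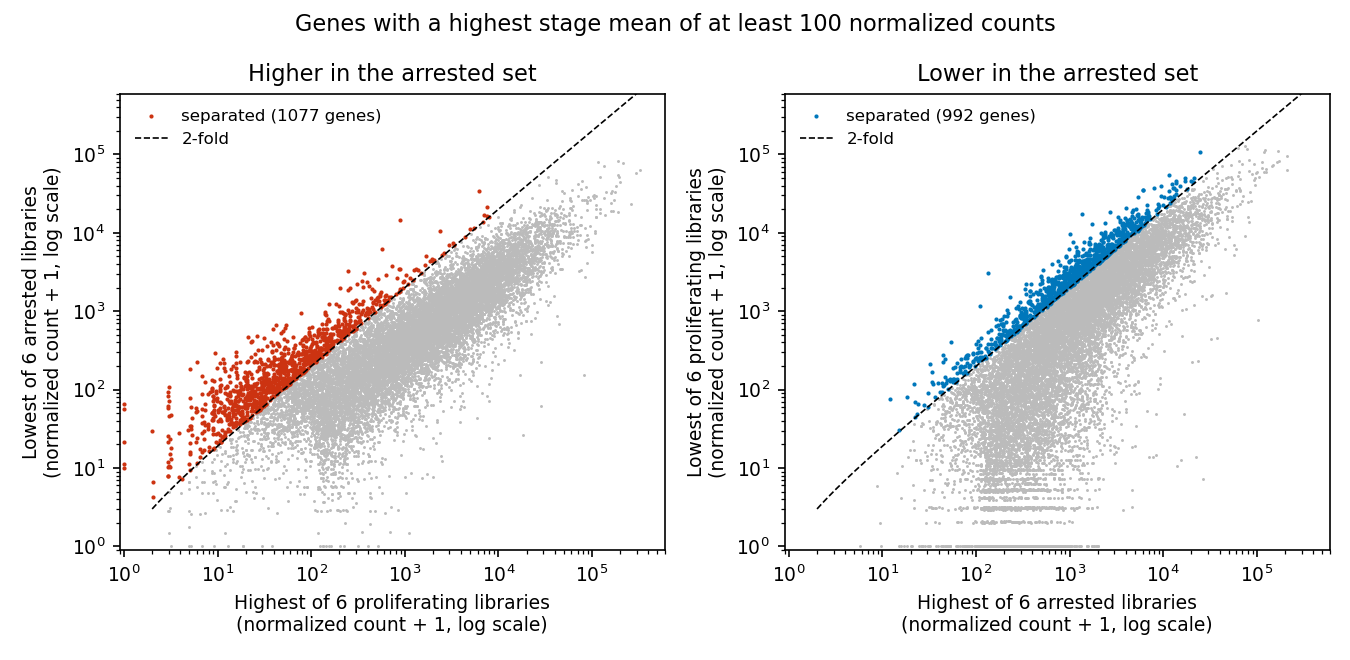
Each point is 1 of 15037 genes. The left panel plots the lowest of 6 arrested libraries against the highest of 6 proliferating libraries, the right panel the reverse, in normalized counts + 1 on log axes; 1077 coloured genes on the left and 992 on the right lie on or past the dashed 2-fold line. The higher genes spread down to libraries at 0, and the lower genes lie mostly above 100 normalized counts in both sets.

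Genes lower in the arrested set were abundant in dividing stages and were reduced, not lost, in between. The median of their stage means was 4173 at E13.5 and 3191 at P3, against 905 at E16.5 and 798 at P0. None was at or under 3 reads in all libraries of any stage. The lowest proliferating library exceeded the highest arrested library by a median of 2.54-fold. That gap reached 4-fold for 89 genes and 10-fold for 3, namely Lhx1, Etv5 and Pigm.

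Lhx1, a LIM homeodomain transcription factor of the gene set that glial cell line-derived neurotrophic factor (GDNF) induces in spermatogonial stem cells, had the widest gap of the lower genes. It lies on chromosome 11 at 84518284 to 84525535 (GRCm38, GENCODE M21, - strand). Its counts were 3873, 3593 and 3634 at E13.5 and 3076, 3220 and 3209 at P3. They were 56.3, 81.8 and 123 at E16.5 and 133, 112 and 100.4 at P0. The highest arrested library was 23.1 times below the lowest proliferating one. Inside the sets the levels were close: P3 against E13.5 gave a log2 difference of -0.22 (limma adjusted p 0.315) and P0 against E16.5 gave 0.46 (adjusted p 0.0476). Lhx1os, a noncoding gene beside Lhx1 on the other strand, followed with 209 to 297 in the proliferating set and 13.4 to 30.8 in the arrested set. Strand use in counting is not given in the sources used here, so reads of these neighbours may not be fully told apart.

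Etv5, an ETS factor that acts downstream of GDNF and fibroblast growth factor (FGF) signalling, is known for its part in keeping spermatogonial stem cells. It had 22160, 20744 and 19965 normalized counts at E13.5 and 17608, 17958 and 20507 at P3. In the arrested set it had 748, 1229 and 1170 at E16.5 and 1206, 1361 and 1205 at P0. Every proliferating library was at least 12.9 times every arrested one, although 24.5% of the 50-base words of Etv5 transcripts occur in other genes too. Etv4, its paralog, was lower in both arrested stages as well, with stage means of 46.1 at E16.5 and 140 at P0, against 719 at E13.5 and 2158 at P3. Unlike Etv5, Etv4 was higher at P3 than at E13.5 (log2 difference 1.59, limma adjusted p 5.59e-08). Spred2, a feedback inhibitor of RAS and ERK signalling and named here after its values were seen, went from 1051 ± 137 at E13.5 to 125 ± 4.19 at E16.5 and 155 ± 8.98 at P0, and was at 894 ± 90.8 at P3 (SD, n = 3).

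Of 19 listed spermatogonial genes, 15 were lower and 3 were higher in the arrested set by the limma set difference, which averages E16.5 and P0 and subtracts the average of E13.5 and P3. Over all 22384 genes tested, 39.2% were lower, 45% were higher and 84.2% passed in either direction, so passing alone sets no gene apart. Most listed genes reach a highest stage mean of at least 100. Among all genes that do, 52.3% were lower and 37.3% higher, with a median log2 set difference of -0.29. The separated members were Lhx1, Etv5, Etv4, Id4 and Sohlh2. Sohlh2, a basic helix-loop-helix factor needed for spermatogonial differentiation, stood between 9776 and 17326 in the proliferating libraries and between 699 and 2301 in the arrested ones. Id4, an inhibitor of helix-loop-helix factors that marks spermatogonial stem cells, had a narrower gap: its highest arrested library was 756 at P0 and its lowest proliferating one was 1546 at E13.5. At P3 11 of the 19 were higher than at E13.5 and 5 were lower, beside 39.4% and 40.5% of genes with that mean. The list median of that log2 difference was 2.16 beside -0.01.

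Genes of the cell division cycle filled most of the remaining places among the 12 widest gaps. These were Aurkb, E2f8, Plk1, Ccna2, Hist1h2ag, Mki67 and Spc24, of which Hist1h2ag, a histone gene, shares 78.9% of its 50-base words with other genes and has an uncertain level. Aurkb, the kinase of the chromosomal passenger complex, stood at 12264, 12179 and 12394 at E13.5 and at 9852, 9976 and 9585 at P3, against 913, 1008 and 996 at E16.5 and 787, 707 and 504 at P0. The lowest proliferating library was 9.51 times the highest arrested one. Plk1, the polo kinase that drives entry into mitosis and whose promoter is printed above, stood at 11926, 12371 and 12561 at E13.5 and at 7708, 7633 and 7683 at P3. It was at 910, 1011 and 1089 at E16.5 and at 568, 430 and 349 at P0. P0 was below E16.5 for Plk1 by a log2 difference of -1.18 (limma adjusted p 4.12e-07), so the lowest values lay at birth.

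**Figure D2:**
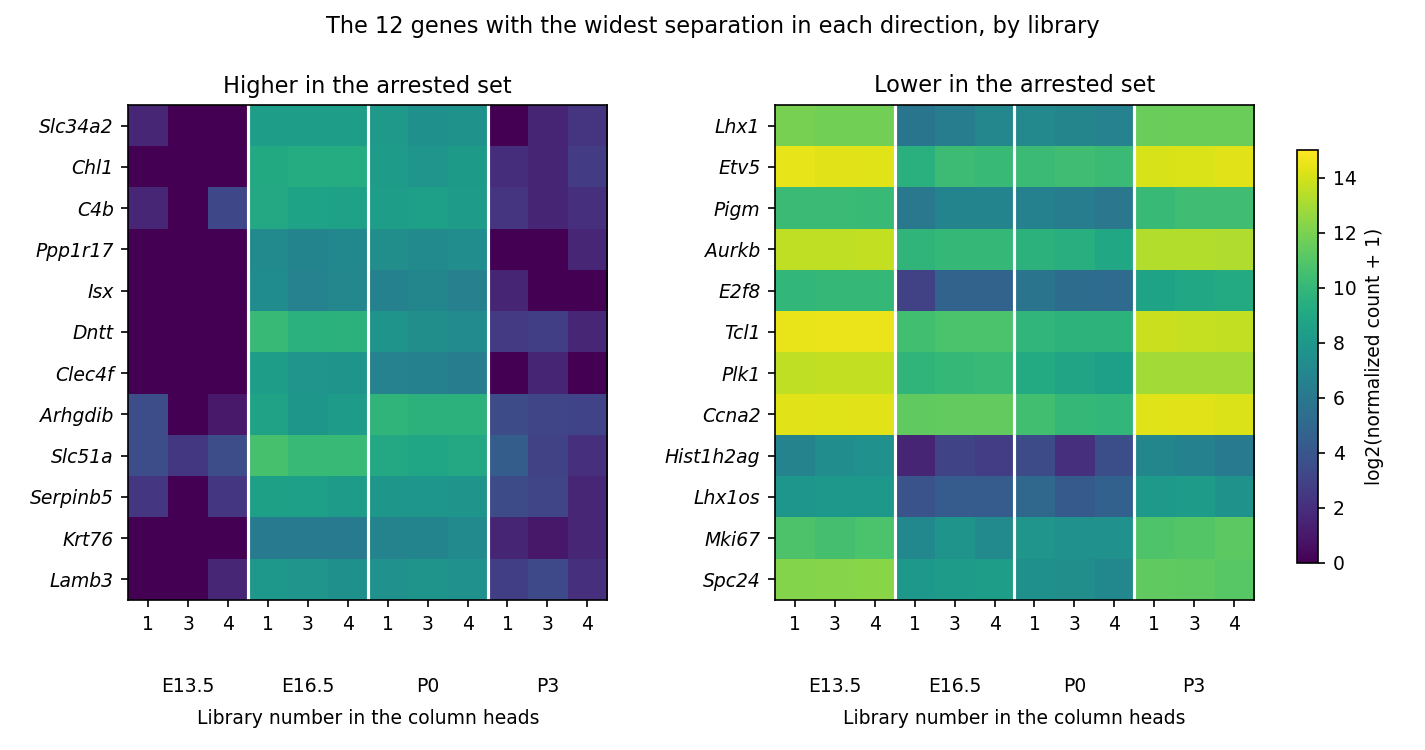
Colours give log2(normalized count + 1) in each of the 12 libraries (columns, grouped by stage) for the 12 genes with the widest gap between the sets in each direction (rows). The higher genes on the left are at or near 0 at E13.5 and P3, while the lower genes on the right keep counts in every library.

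The mitosis and spindle list had 33 genes tested, of which 32 were lower and 1, Pttg1, was higher in the arrested set. For 26 of them all 4 pairs of an arrested with a proliferating stage passed in that direction, against 19.2% of all genes tested, and 18 were separated 2-fold. The list median of the log2 set difference was -2.30, beside 0.15 for all genes. Kif11, the motor that pushes spindle poles apart, went from 10301 ± 964 at E13.5 to 1300 ± 127 at E16.5 and 870 ± 76.9 at P0, and stood at 8058 ± 385 at P3. Pttg1, which encodes securin, the inhibitor of separase, did not follow the rest. Its counts were highest at E16.5, at 6605 ± 741, and were 3668 ± 53.9 at E13.5, 1747 ± 87.1 at P0 and 2238 ± 314 at P3.

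Of the 33 mitosis genes, 28 had a RefSeq promoter window. A CHR was present in 21 of these windows (75%) and a CCAAT box in 21 (75%). Among all 27018 genes with a window of the same 300 bases, 18.15% held a CHR and 38.03% held a CCAAT box. Only 71.9% of the separated higher genes and 74.3% of the separated lower genes could be matched to a window, so motif shares over those whole groups are void and are not given.

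All 42 DNA replication genes tested were lower in the arrested set, 37 of them in all 4 pairs of stages, and 23 were separated. The separated members included genes of origin licensing and its control (Orc1, Cdc6, Gmnn, Mcm2 to Mcm6, Mcm10) and of the replicative helicase (Cdc45, Gins2). Genes of DNA synthesis at the fork (Pcna, Rfc2, Pola2, Prim1, Pold2, Pole2, Fen1) and of nucleotide supply (Tk1 and Tyms among them) were separated too. Timeless and Tipin, of the fork protection complex, were also separated. Mcm6, a subunit of the helicase, stood at 69616, 63527 and 67536 at E13.5 and at 45699, 45505 and 47141 at P3, against 17263, 17088 and 14597 at E16.5 and 11081, 10021 and 9378 at P0. The sets did not overlap, yet every arrested library kept at least 9378 counts. Cdc6, the loader of that helicase, differed more: its stage means were 3604 ± 229, 476 ± 71.1, 318 ± 78.8 and 5285 ± 81.6 in the same order. Fen1 and Gins2 share 76.7% and 65.4% of their 50-base words with other genes, so their levels are uncertain.

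Of the 17 cyclins, cyclin-dependent kinases (CDKs) and CDC25 phosphatases, 16 were lower and 1 was higher. Cdk1, the kinase of mitosis, stood at 11592, 11604 and 11448 at E13.5 and at 7530, 7247 and 6684 at P3. In the arrested set it stood at 1066, 1039 and 1174 at E16.5 and at 901, 902 and 588 at P0. Ccna2, Ccnb1, Ccnb2, Ccne1, Ccnf, Cdc25a and Skp2 were separated along with it. The exception was Cdc25b, a phosphatase that activates CDKs, with stage means of 502 ± 31.1, 2041 ± 185, 2840 ± 170 and 1014 ± 27.6 from E13.5 to P3. Its gap was 1.75-fold, just short of the rule.

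D-type cyclins, which link growth signals to RB phosphorylation, did not share 1 pattern. Ccnd1 had stage means of 741 ± 130, 76.7 ± 6.44, 313 ± 30.8 and 7383 ± 440 from E13.5 to P3, and its gap of 1.74-fold fell short because P0 was only moderately below E13.5. Ccnd2 went up at each stage, with means of 612 ± 37.2, 1872 ± 449, 6401 ± 1118 and 37630 ± 1952. Its P3 mean exceeded its E13.5 mean by a log2 difference of 5.94 (limma adjusted p 2.24e-15), so the proliferating stages differed from each other more than from either arrested stage.

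Among 17 E2F, MYB and FOXM1 factors, 15 were lower, Mybl1 was higher and E2f6 did not pass, though E2f6 was higher by the same test with TMM, median-of-ratios and equal-total scaling. E2f3, E2f4, E2f7, E2f8, Tfdp1 and Foxm1 were separated. E2f8, an atypical E2F that represses targets late in S phase, stood at 974, 997 and 999 at E13.5 and at 409, 483 and 569 at P3, against 6.68, 26.0 and 26.1 at E16.5 and 52.7, 39.1 and 37.6 at P0. Replication-linked repair genes were lower in 20 of 20 cases, and 8 were separated, among them Brca1, Exo1, Chek1, Dna2, Rmi2 and Ung.

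Inhibitors of the cycle were split. Among all genes with a highest stage mean of at least 100, 52.3% were lower and 37.3% higher. Of 10 CDK inhibitor and RB family genes, 4 were higher (Cdkn1c, Cdkn2b, Cdkn2c and Rbl2), 4 were lower and 2 did not pass (Cdkn1b and Cdkn2a). With equal library totals 6 were higher and 3 lower, and Cdkn1b and Cdkn2a passed as higher. Cdkn1a, which encodes p21 and is a target of p53, was separated in the lower direction, with 1817 to 2149 at E13.5 and 1336 to 1589 at P3 against 191.6 to 373 in the arrested libraries. Rbl1, which encodes the pocket protein p107, was also separated as lower. Cdkn1c, which encodes p57, was highest at P0 with 6098 ± 320, but E13.5 at 3363 ± 130 exceeded E16.5 at 1873 ± 172, so its libraries overlapped between the sets. No gene of the list was separated as higher.

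Trp53, the gene of p53 itself and named here after its values were seen, stood at 16812 to 18394 at E13.5 and 3955 to 4160 at P3, against 951 to 1179 at E16.5 and 901 to 1158 at P0. Of 21 p53 target genes, 13 were lower, 2 were higher and 6 did not pass. These counts stand beside 52.3% lower and 37.3% higher among all genes with a highest stage mean of at least 100. Bax, Pmaip1, Trp53inp1, Ei24 and Cdkn1a were separated as lower. Fas, the death receptor, went the other way, with 182 to 274 in the arrested libraries and at most 26.4 in the proliferating ones. Perp, a desmosome protein of the same list, was the other higher gene. With TMM, median-of-ratios and equal-total scaling 7, 8 and 9 of these targets were higher and 12, 11 and 11 lower, while the list median relative to all genes stayed between -1.02 and -1.08.

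All 14 chromatin assembly and maintenance genes were lower, each in all 4 pairs of stages, and 12 were separated. Uhrf1, which reads hemimethylated DNA after replication, stood at 7929, 7142 and 7972 at E13.5 and at 30251, 30377 and 34050 at P3, against 1898, 2075 and 1915 at E16.5 and 1603, 1329 and 1196 at P0. Dnmt1, the maintenance methyltransferase that Uhrf1 recruits, had a 2.29-fold gap, with 2734 to 5001 in the arrested set and 11467 to 13734 in the proliferating set. Hells, a remodeller of heterochromatin, and Cbx1, a heterochromatin protein of the HP1 family, had wider gaps. Of this list 13 genes had a promoter window, of which 5 (38.46%) held a CHR, 9 (69.23%) a CCAAT box and 2 (15.38%) an E2F-type word. The shares of all RefSeq windows were 18.15%, 38.03% and 2.328%. Among the genes with a highest stage mean of at least 100, 74.6% had a window, and 4.083% of these windows held an E2F-type word.

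**Figure D3:**
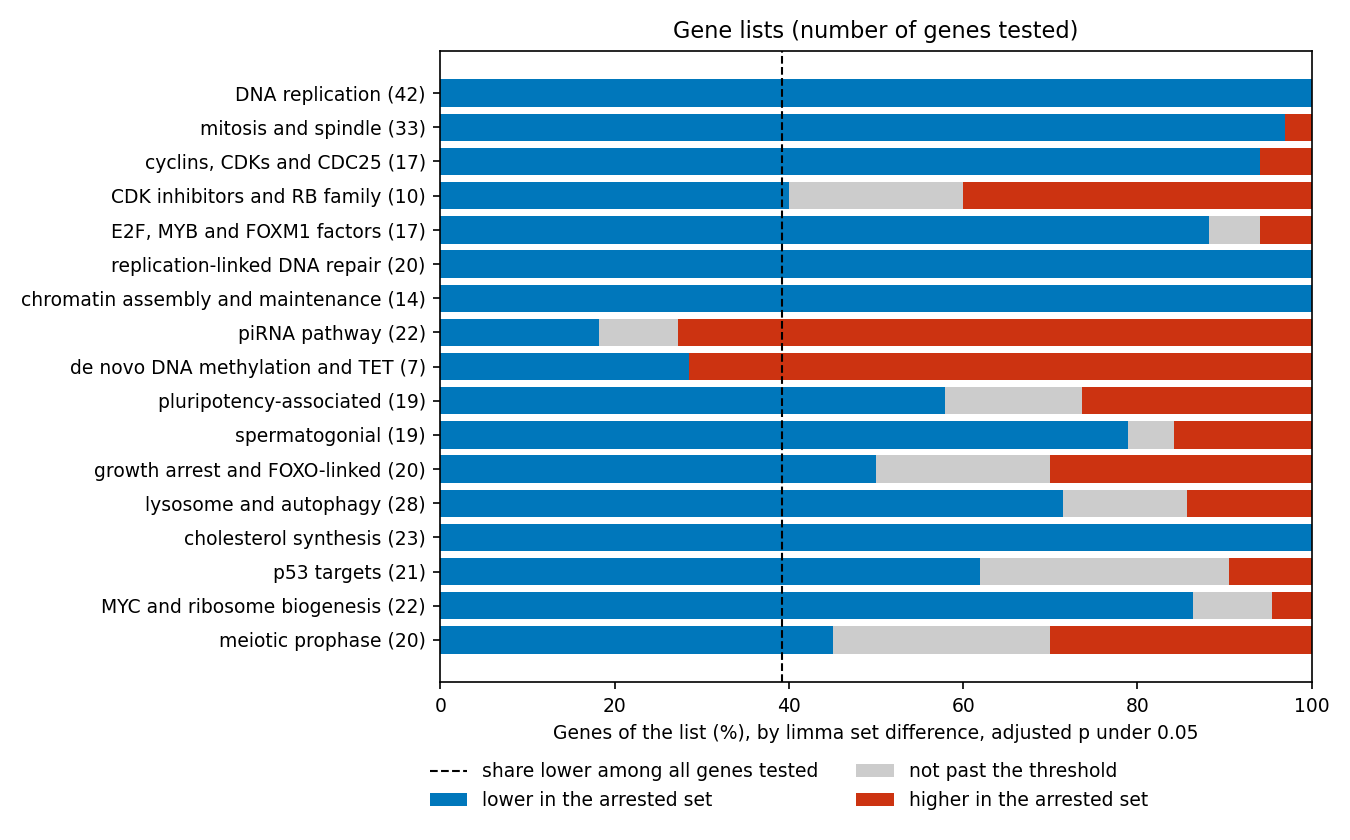
Bars give the percentage of genes in each of 17 lists that were lower (blue), not past the threshold (grey) or higher (red) in the arrested set by the limma set difference; the number tested is in brackets and the dashed line marks the 39.2% of all genes that were lower. Replication, repair, chromatin and cholesterol lists are blue throughout, and the piRNA and de novo methylation lists are mostly red.

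Growth-related lists were lower too, though less far. MYC and ribosome biogenesis had 19 of 22 genes lower and 1, Rrp12, higher, with a median log2 set difference of -1.29. Mycn, a MYC family transcription factor that drives growth, was separated, with 21862 to 22373 at E13.5 and 4460 to 5033 at P3 against 515 to 832 at E16.5 and 884 to 1161 at P0. Nop58, Nop2, Dkc1 and Gar1, which process or modify ribosomal RNA, were separated with it. All 23 cholesterol synthesis genes were lower, with a median of -0.92, but only 2 were separated, Lss among them, and with equal library totals 14 were lower and 3 higher.

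Of the lower genes that no list holds, Tcl1 and Pigm had the widest gaps. Tcl1, a coactivator of AKT known from early embryos and germ cells, stood at 22791 to 24656 at E13.5 and 12850 to 14086 at P3, against 1420 to 1723 at E16.5 and 820 to 918 at P0. Pigm encodes a mannosyltransferase of glycosylphosphatidylinositol (GPI) anchor synthesis. It stood at 1165 to 1209 and 1149 to 1360 in the E13.5 and P3 libraries, against 63.9 to 108 at E16.5 and 60.8 to 94.5 at P0. Neither stage inside a set differed for Pigm: P3 against E13.5 gave 0.10 (limma adjusted p 0.660) and P0 against E16.5 gave -0.23 (adjusted p 0.312), each with an SE of 0.19.

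Families of genes were also counted by the letters of their symbols, over the 228 families with at least 8 genes of a highest stage mean of at least 100; those named were picked after their counts were seen. On the lower side, 6 of 10 Mcm genes, 5 of 9 Exosc genes of the RNA exosome, 4 of 10 Utp genes of the small ribosomal subunit processome, 7 of 28 Polr genes of RNA polymerases, 4 of 15 Timm genes of the inner mitochondrial import machinery and 10 of 47 Mrpl genes of the mitochondrial ribosome were separated. None of these families had a separated higher gene. Their shares stand beside the 6.6% of all genes with that mean. Larger families such as Rpl (5 of 51), Eif (6 of 54) and Tmem (14 of 182) lay nearer to it. Exosc5 stood at 11578 to 12183, 2196 to 2404, 599 to 621 and 5670 to 6602 from E13.5 to P3. Under all 5 scalings tried, 4 Mcm, 2 Exosc, 2 Utp, 2 Polr, 3 Mrpl and 0 Timm genes stayed separated.

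The lower group depended on how libraries were scaled far more than the higher group. The size factors of the file were 1.84 to 2.07 at P0 and 0.919 to 1.263 elsewhere, and the summed normalized counts were 23044303 to 39072941 per arrested library against 41997119 to 54397541 per proliferating one. Of the 992 lower genes, 735 remained with TMM factors, 556 with median-of-ratios factors and 262 with equal library totals, and 260 (26.2%) were separated under all 5. Of the 1077 higher genes, 1053 (97.8%) were separated under all 5. The 260 included 15 of the 18 separated mitosis genes, 14 of 23 replication genes, 7 of 8 cyclin and CDK genes and 7 of 12 chromatin genes, and all 12 lower genes with the widest gaps. Other lists kept fewer: 4 of 8 repair genes, 3 of 5 spermatogonial genes (Etv5, Lhx1 and Sohlh2, not Etv4 or Id4), 2 of 6 E2F, MYB and FOXM1 factors (E2f3 and E2f8), 2 of 5 MYC and ribosome genes (Mycn and Dkc1), and 1 of 5 p53 targets (Cdkn1a). Rbl1, Ulk1, Lss, Smc1b, Dnmt1 and Trp53 were also not separated under every scaling. The median log2 set difference of all genes moved from 0.15 to 0.51 with median-of-ratios factors and to 0.88 with equal totals. Relative to that median, the mitosis list stood at -2.45 under the file's scaling and at -2.51 with equal totals, and the replication list at -2.18 and -2.25.

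**Figure D4:**
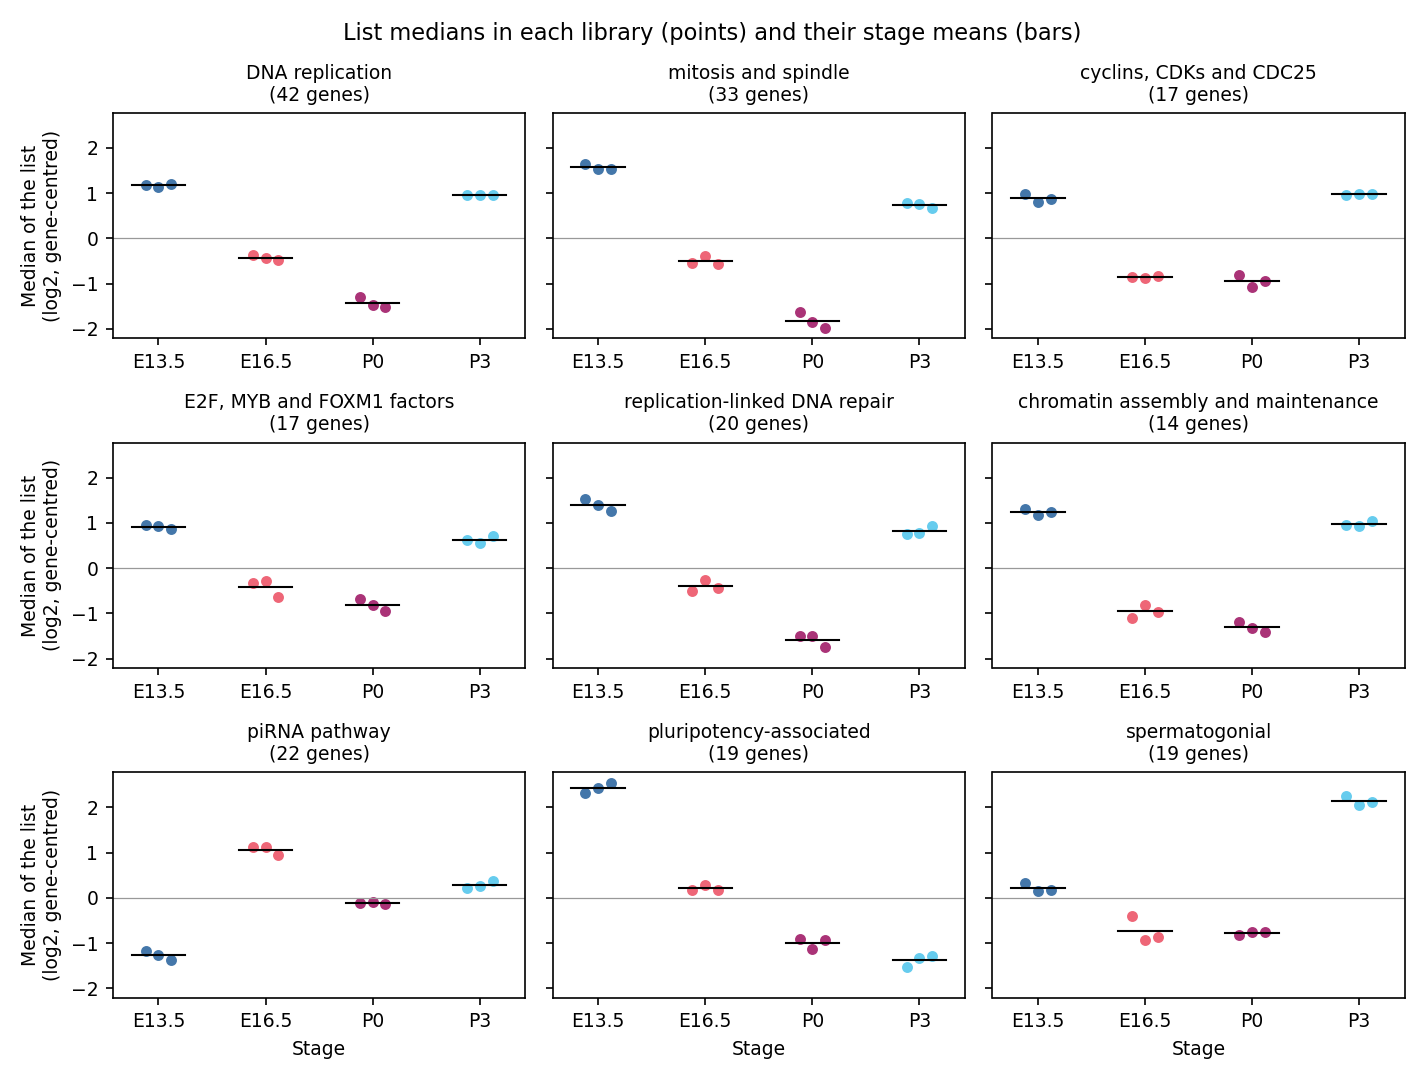
Points give the median over the genes of a list of log2(normalized count + 1), centred per gene on its mean over all libraries, in each library; bars are stage means (3 libraries). The 6 upper lists are above 0 at E13.5 and P3 and below 0 at E16.5 and P0, while the piRNA list peaks at E16.5, the pluripotency list falls from E13.5 to P3 and the spermatogonial list is highest at P3.

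The 1077 genes higher in the arrested set were, for the most part, scarce in both proliferating stages. The median of their stage means was 8.88 at E13.5 and 34.6 at P3, against 231 at E16.5 and 284 at P0. At E13.5, 256 of them were at or under 3 reads in every library, and at P3 40 were. The mean was highest at P0 for 677 genes and at E16.5 for 400. The lowest arrested library exceeded the highest proliferating one by a median of 3.17-fold, by 4-fold or more for 377 genes and by 10-fold or more for 75, where libraries at or under 3 reads were set to 3 reads. Setting that floor left 3 genes under 2-fold.

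Protein-coding genes made up 1010 of the higher and 909 of the lower genes. Noncoding gene types made up 50 (4.64%) and 14 (1.41%), beside 4.09% of all genes with a highest stage mean of at least 100. Pseudogenes made up 15 (1.39%) and 69 (6.96%), beside 4.203%. A pseudogene shares reads with its parent gene, and how such reads were counted is not given in the sources used here, so the levels of both groups of pseudogenes are uncertain.

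Slc34a2, a sodium-phosphate cotransporter of epithelia, had the widest gap, 45.2-fold. It lies on chromosome 5 at 53038081 to 53071664 (GRCm38, GENCODE M21, + strand). It stood at 336, 345 and 319 at E16.5 and at 266, 183 and 210.0 at P0, against 2.11, 0 and 0 at E13.5 and 0, 1.96 and 4.05 at P3. The arrested stages did not differ from each other past the threshold (log2 difference of P0 against E16.5 -0.62, SE 0.54, limma adjusted p 0.338). Chl1, a cell adhesion molecule of the L1 family, had no reads at E13.5 and 1.96 to 5.06 normalized counts at P3, against 562, 618 and 624 at E16.5 and 300.2, 226 and 293 at P0. For Chl1 the level at P0 was below that at E16.5 (log2 difference -1.15, adjusted p 0.00674).

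The other 10 genes with the widest gaps came from unlike tissues as far as their known roles go. C4b is a complement protein, and 34.6% of its 50-base words occur in other genes. Dntt, the terminal transferase of developing lymphocytes, stood at 1157, 775 and 800.2 at E16.5 and at 216, 168 and 150 at P0, with at most 5.89 in any proliferating library. Clec4f is a lectin of Kupffer cells and Arhgdib an inhibitor of small GTPases in blood cells. Isx is a homeobox factor of the gut, and Slc51a a transporter of bile acids. Serpinb5, Krt76 and Lamb3 belong to epithelia, and Ppp1r17 is a phosphatase inhibitor of Purkinje cells. All 12 were at most 20.3 in every proliferating library, and between 71.6 and 1617 at E16.5.

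Symbol families were counted on the higher side too. Myosin heavy chain genes (Myh) gave 8 separated of 14, namely the muscle genes Myh1, Myh2, Myh4, Myh7, Myh8, Myh11, Myh13 and Myh15. Keratins (Krt) gave 12 of 30, dyneins of motile cilia (Dnah) 5 of 12, cilia and flagella proteins (Cfap) 8 of 21, Wnt ligands 5 of 14 and cytochromes P450 (Cyp) 9 of 31. These shares stand beside the 7.16% over all genes, and the families were picked after their counts were seen. Cfap was the only one of these 6 with a separated lower gene, Cfap77. All of the separated higher members stayed so under each of the 5 scalings except 1 of the 12 keratins.

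Myh8, the perinatal skeletal muscle myosin, stood at 507, 434 and 332 at E16.5 and at 2047, 1506 and 1770 at P0, against 11.6, 4.35 and 21 at E13.5 and 121, 85.4 and 133 at P3. Several of these myosins lie side by side on chromosome 11, and 12.1% of the 50-base words of Myh8 occur in other genes. Krt4, a keratin of mucosal epithelia, was at 0 at E13.5 and at 13.7 to 19.4 at P3, against 109 to 198 at E16.5 and 837 to 978 at P0. Dnah5, a dynein arm protein of cilia, went the same way, with at most 63.8 in the proliferating set and at least 169 in the arrested one. Cfap43 peaked at E16.5 instead, at 901 to 1184, and stood at 633 to 665 at P0, 217 to 231 at P3 and 11.6 to 16.9 at E13.5.

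Hnf4a, Trp63 and Zp2 were in the group as well, and are named here after their values were seen. Hnf4a, the hepatocyte and gut nuclear receptor, stood at 103 to 173 at E16.5 and 110 to 159.8 at P0, with at most 7.75 in any proliferating library. Trp63, the p53 relative of epithelial and germ cells, stood at 624 to 882 and 667 to 823, against 58.1 to 101 in the proliferating set. Zp2, an egg coat gene, stood at 402 to 565 at E16.5 and 496 to 680 at P0, with at most 21.6 elsewhere.

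Germ line genes with a known role in the pause formed a smaller share. Of 22 piRNA pathway genes, 16 were higher, 4 were lower and 2 did not pass, but only Tdrd9 and Spocd1 were separated, and 4 (these and Piwil4 and Mael) passed in all 4 pairs of stages, against 18.4% of all genes. With the file's scaling the average over the set rests on E16.5, as 21 of the 22 were lower at P0 than at E16.5. The summed level of the list was then 216460 to 230390 at P0, below the 284330 to 286820 at P3. Median-of-ratios factors and equal totals give smaller size factors than the file at P0 and larger ones at P3. The order of P0 and P3 may therefore change with scaling, and the sums were not recomputed. Spocd1, which links the nuclear PIWI protein to DNA methylation, stood at 22267 to 26257 at E16.5 and 14519 to 15212 at P0, against 679 to 882 at P3 and 6.31 to 21.1 at E13.5. Its gap between the sets was thus set by P3. Tdrd9, a helicase of the same pathway, had a gap of 2.07-fold, because P3 still held 4275 to 5536. Piwil4, the nuclear PIWI protein itself, was not separated: P3 at 3068 to 3506 was less than 2-fold below P0 at 5126 to 6055.

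Of the 7 de novo methylation and TET genes, 5 were higher (Dnmt3a, Dnmt3c, Dnmt3l, Tet2 and Tet3) and 2 were lower. Dnmt3l, the cofactor of de novo methylation, and Dnmt3c, the methyltransferase of young transposons, were separated. Dnmt3c stood at 2049 to 2341 at E16.5 and 550 to 613 at P0, against 18.5 to 48.6 at E13.5 and 32 to 44.2 at P3. Both proliferating stages were alike for Dnmt3c (log2 difference 0.09, SE 0.27, limma adjusted p 0.771), whereas Dnmt3l was higher at P3 than at E13.5 by 4.85 (adjusted p 7.50e-14). Their levels differed within the arrested set too, with P0 below E16.5 by a log2 difference of -1.96 for Dnmt3c (adjusted p 7.55e-06). Of Dnmt3c's 50-base words, 23.6% occur in other genes.

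Other lists held few separated higher genes. Their counts by the set difference stand beside 52.3% lower and 37.3% higher among all genes with a highest stage mean of at least 100. Of 20 growth arrest and FOXO-linked genes, 6 were higher and 10 were lower, and Bcl6, a transcriptional repressor, was the 1 separated member, at 104 to 254 in the arrested libraries and at most 37.0 elsewhere. With median-of-ratios factors and with equal totals 10 and 13 genes were higher and 7 and 3 lower, but all genes shifted alike, and the list median relative to all genes was -0.32 with the file scaling and -0.35 and -0.38 with these. Of 20 meiotic prophase genes, 6 were higher and 9 were lower, against 9 and 8 with TMM or median-of-ratios factors and 12 and 6 with equal totals. Spo11, the enzyme that makes meiotic double-strand breaks, was separated as higher, at 746 to 878 at E16.5 and 1067 to 1311 at P0, against at most 321 in the other libraries, while Syce2 and Smc1b were separated as lower. Of 28 lysosome and autophagy genes, 20 were lower and 4 higher, and Ulk1 was separated as lower; with equal totals 11 were lower and 14 higher. Of 19 pluripotency-associated genes, 11 were lower, 5 were higher and none was separated; 16 of them were lower at P3 than at E13.5.

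Inside the sets the higher genes were far from level. The background here is all genes with a highest stage mean of at least 100. At P3 720 of the 1077 (66.9%) were higher than at E13.5 and 74 were lower by limma's adjusted p. The median log2 difference was 1.54 beside -0.01 for the background, of which 39.4% were higher. At P0 344 (31.9%) were higher than at E16.5, near the background of 26.4%. Another 182 (16.9%) were lower, beside 45.5%, with a median of 0.31 beside -0.22. Of the 992 lower genes, 560 (56.5%) were below their E13.5 level at P3, beside 40.5% of the background, and 130 (13.1%) were above it (median -0.33). At P0 406 of them (40.9%) were below their E16.5 level and 187 (18.9%) above it (median -0.15), which is near the background: 45.5% of genes with a highest stage mean of at least 100 were below, with a median of -0.22. Contrasts of P0 with E16.5 moved with scaling, and with equal totals 685 of the lower genes were above their E16.5 level at P0 and 90 below it.

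Libraries of the arrested set also detected more genes and held more of most markers of other cell types. Genes with over 3 reads numbered 24055 to 29618 in the arrested libraries and 19070 to 22005 in the proliferating ones, at 40946616 to 47744848 and 41490756 to 51533747 reads. Within E16.5 they numbered 24055, 24137 and 25425 in libraries 1, 3 and 4. The higher genes went in the reverse order there, at a median log2 deviation of 0.13, -0.03 and -0.10 from their stage mean. Within P0 the numbers were 28862, 28720 and 29618, and the deviations 0.05, -0.03 and -0.02. Of the markers tested, 5 of 6 Sertoli, 4 of 5 Leydig, 4 of 4 peritubular and smooth muscle, 6 of 6 fibroblast, 5 of 5 red blood cell, 5 of 6 macrophage and 6 of 6 mast cell genes were higher in the arrested set by limma's adjusted p, and none was lower. The endothelial list had 4 higher genes and 1 lower, Pecam1, which germ cells also express. Over all genes tested, 45% were higher and 39.2% lower by the same test. Cyp11a1, Myh11, Alas2 and Tek were among the 1077 separated genes.

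The summed levels of these lists were small beside those of germ cells. The 5 germ cell markers summed to 232440 to 257750 per library at E16.5 and 133680 to 142170 at P0, against 226310 to 254460 per proliferating library. None was at 0. With the file's scaling the germ cell sum was thus lowest at P0, where the Sertoli, peritubular and smooth muscle, and fibroblast sums were highest. Equal library totals give smaller size factors than the file at P0 and larger ones at E13.5 and P3. The stage with the lowest germ cell sum may therefore change with scaling. The sums were not recomputed under other scalings, so no smaller share of germ cells at P0 is inferred. Sertoli markers summed to 3946 to 9942 against 2515 to 3720, peritubular and smooth muscle markers to 1253 to 4160 against 171.0 to 916, fibroblast markers to 1656 to 3706 against 132 to 2325, and red blood cell markers to 1601 to 2563 against 68.4 to 546. Macrophage markers summed to 168 to 1169 against 38.1 to 313, and mast cell markers to 24.2 to 3210 against 0 to 322, with all 7 at 0 at E13.5. Leydig markers summed to 623 to 7763 against 179 to 729, and endothelial markers to 730 to 1314 against 592 to 5192. The part of other cells in the higher group was not tested.

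Leydig markers varied between libraries of a stage. At E16.5 they summed to 623, 1236 and 7763, while the higher genes as a group stood at a median log2 deviation of 0.13, -0.03 and -0.10 from their stage mean in the same libraries. At P0 the marker sums were 6201, 3169 and 1133, and the deviations 0.05, -0.03 and -0.02. At E16.5 the library with the highest Leydig sum had the lowest levels of the separated genes, and at P0 the library with the highest sum also had the highest levels. Marker lists differed in this. Peritubular and smooth muscle sums were 1867, 1263 and 1253 at E16.5 and 4160, 3699 and 3939 at P0, ranked as the deviations in both stages. Sertoli sums were 3946, 4131 and 5854 at E16.5, in the reverse order, and 9943, 8525 and 5883 at P0. A link within stages was not tested.

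**Figure D5:**
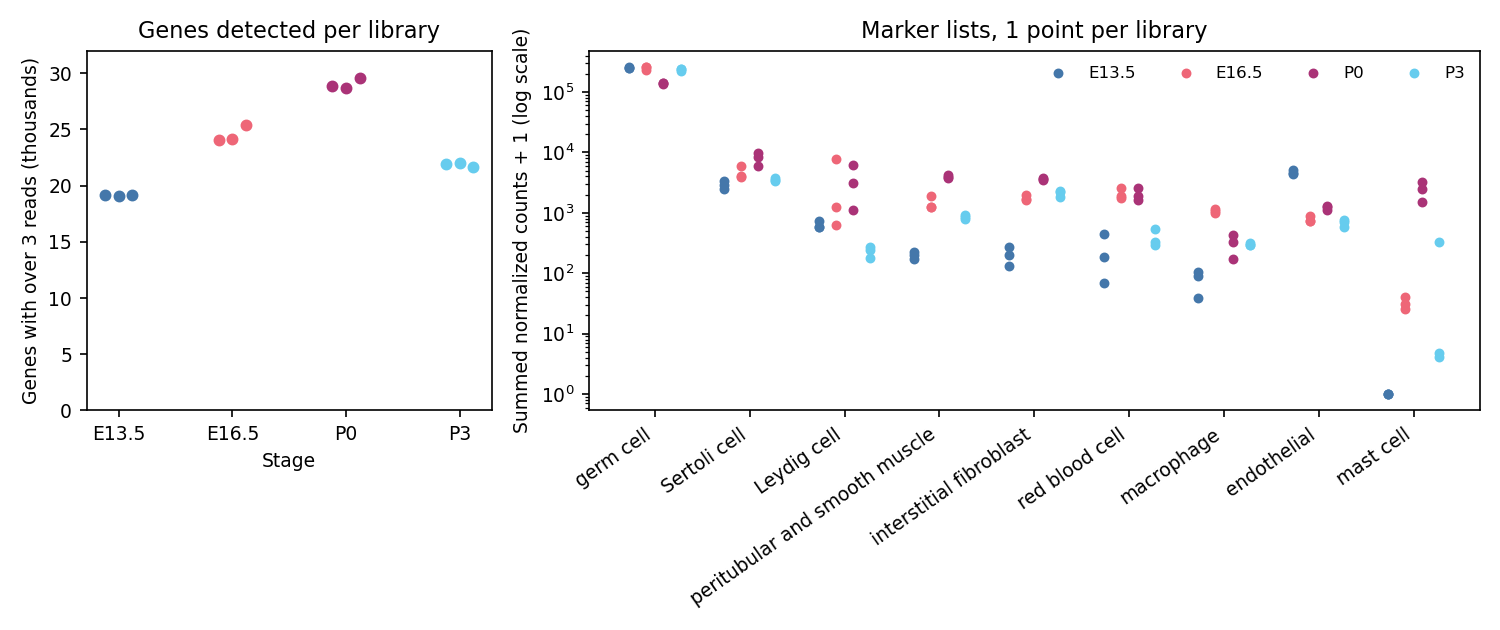
The left panel gives the number of genes with over 3 reads in each library by stage; the right panel gives summed normalized counts + 1 of 9 marker lists on a log axis, 1 point per library coloured by stage. Detected genes are highest at P0 and lowest at E13.5, and most marker lists other than germ cell sum higher at E16.5 and P0.

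The rule's thresholds cut through a continuous range. Just inside 2-fold among the higher genes were Maats1 (2.00) and Pcdhac2 (2.00), and just outside were Ankrd50 (1.99) and Mep1a (1.99). Among the lower genes Pafah1b1 and Tmpo were just inside, and Cstf2 and Cldn5 just outside. On the stage mean, Krt14 at 100.6 was inside and Colgalt2 at 99.7 outside among the higher genes, and Sdhaf1 at 138 was inside and Hist1h1a at 99.1 outside among the lower ones.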

How the data were processed

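RNA sequencing of 12 samples gave 1 deposited table of 55487 genes. The authors deposited a signal per gene and library, a read count divided by 1 size factor, per the file headers. The submitters' processing notes list bcl2fastq 2.20, cutadapt 1.18, HISAT2 2.1.0, featureCounts 1.5.2 and DESeq2 1.26.0 with the builds mm10 and GRCm38. The annotation release, strand setting and multi-mapping rule are not given in the sources used here. Multiplied by the size factors, 100% of values came out whole (tolerance 0.001), giving 40946616 to 51533747 reads; amplified reads carry no molecular identifiers, so floors of 3 reads cover counting error only. Columns were grouped by the stage in their heads, which also hold 1, 3 or 4. Libraries of a stage differed beyond counting noise in each pair (chi-square over genes 5.44 to 19.1 per gene).

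The separation rule was applied to the deposited values. limma 3.58.1 (R 4.3.3) was fitted to log2(value + 1) (trend, 8 residual degrees of freedom, all 4 stages sharing 1 estimate of the spread) on 22384 genes reaching 10 normalized counts in 3 or more libraries. Benjamini-Hochberg adjusted p under 0.05 was the threshold, and the median SE of a set difference was 0.16. edgeR 4.0.16 (quasi-likelihood) and DESeq2 1.42.0 on the recovered reads called 18734 and 18711 genes, limma 18848. On simulated data with 200 of 22384 genes changed 4-fold between the sets, limma, edgeR and DESeq2 each recovered 100% and called 7, 7 and 17 unchanged genes, and the rule recovered 99.5% and picked 0 others. The simulated data had no other stage difference and took the file's size factors as true. In the real data 84.2% of genes passed and the scaling was uncertain, so these rates do not carry over to them. Symbols matched 99.4% of identifiers; positions and exon models came from GENCODE M21. Named genes are Morc1, the 12 with the widest gap in each direction, list members and genes at the thresholds, with others marked as named after their values were seen. The members, rule and lists were chosen with earlier results of these data known. Python 3.11.15, numpy 2.4.6, pandas 2.3.3 and matplotlib 3.10.9 were used for the remaining steps. Some genes of the lists are counted but not reported here by name.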

Additional observations from a re-analysis of the deposited data

How the results depend on the processing

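The column heads carry the numbers 1, 3 and 4 in each stage, which are not those of the labels, and they did not pair the libraries: 0 of 18 same-number correlations of deviations from the stage means exceeded 0.1 (-0.036 to 0.042). A replicate block on that number, chosen after seeing the data, called 18802 genes by the set difference (10044 higher, 8758 lower) and changed the call of 0 of 159 named genes; the P0 against E16.5 calls of Lhx1 and Spred2 were lost (limma adjusted p 0.062 and 0.0536) and the P3 against E13.5 call of Mcm2 (0.0529). Of these 159 genes, 139 were separated by the rule, so their set difference could hardly change, and the next count does not measure robustness. For the set difference, 1102 of 1113 alternatives over these 159 genes kept direction and call (4 scalings, a pseudocount of 10, lowest and highest value with 1 library left out). The other 11 were in Ccnd2 (-0.16, not past the threshold, with median-of-ratios, 0.18 with equal totals), Cdkn2a (0.18, 0.32 and 0.65 with TMM, median-of-ratios and equal totals, -0.11 to 0.10 with 1 library left out), Cdkn1b and E2f6. The 2-fold separation itself was less stable: 44 of 139 named separated genes, 43 of them lower, were not separated under all 5 scalings. Counts that moved by over 1.5 times did so mainly with scaling. With equal library totals the separated genes were 1828 higher and 262 lower, the set difference called 5053 lower, and all 4 stage pairs called 6533 higher and 2029 lower; the share higher among separated genes went from 52.05% to 87.46%. The same scaling gave 671 higher and 77 lower at P0 against E16.5 and 42 lower at P3 against E13.5 among the higher genes, and 685 and 90, and 304 and 336, among the lower genes; growth arrest, lysosome and cholesterol lists had 3, 11 and 14 lower genes. Median-of-ratios factors gave 556 separated lower genes, with 382 higher and 258 lower at P0 against E16.5 among the lower genes, and TMM factors 350 higher. Under all 5 scalings together, an alternative chosen after seeing the data, 260 lower genes remained. The causes were not tested. By construction, no filter called 15110 genes higher by the set difference and a mean of at least 100 called 5618, and 2326 in all 4 pairs; a 4-fold rule gave 385 higher and 89 lower genes, a 1.5-fold rule 2013 lower, and stage means of at least 30 and 300 gave 1645 and 575 higher. Among set difference calls 53.4% were higher, against 59.32%, 63.28% and 74.27% with TMM, median-of-ratios and equal totals, 62.91% with no filter and 41.65% with a mean of at least 100. Leaving out each library in turn gave 1073 to 1185 higher and 998 to 1124 lower separated genes, and 17790 to 18608 set difference calls. Depth limits the higher genes, of which 256 were at the floor at E13.5.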
